A study of Mus musculus with 2 samples.

Results

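Toll-like receptors and the accessory receptor gene Cd14 were read in neutrophils from mouse bone marrow through every probe set that the platform annotation assigns to exactly 1 of these genes: Tlr1, Tlr2, Tlr4, Tlr5, Tlr6, Tlr7, Tlr8, Tlr9, Tlr13 and Cd14. These 10 genes had 15 of the 34945 single-gene probe sets and made up 10 of the 18193 genes measured. The cells were neutrophils of C57BL/6 mice, an inbred strain, with no treatment of the animals in the labels, sorted fresh by flow cytometry as live cells high for Gr-1, an antigen of granulocytes, and negative for CD48, which marks many other cells of the blood. The study holds 1 group of 2 arrays, replicate 1 and replicate 2, from independent experiments. How many mice were used, their age and whether their cells were pooled was not stated in the labels. The spread between the arrays therefore holds everything that differed between the experiments, which may be technical.

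Toll-like receptors are membrane proteins that bind conserved molecules of microbes through a horseshoe of leucine-rich repeats and signal through a cytoplasmic TIR domain. Some sit at the cell surface and bind lipids and proteins of the microbial envelope. Others sit in endosomes, where they bind nucleic acids of ingested microbes. Neutrophils use them to prime the oxidative burst, release cytokines and delay their own death.

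A signal was called above background when it exceeded the 95th percentile of 87 probe sets of sensory receptor genes (for odours, pheromones, trace amines and taste) on the same array, which was 108 on replicate 1 and 131 on replicate 2. By this rule 3 of 37 measured genes of other organs (Myl2, Lgals4 and Sftpb) were also above background on both arrays. Of the 10 receptor genes, 8 were above background on both arrays, where 40.4% of all genes were. Tlr8 was above it on replicate 1 alone, and Tlr9 on neither array. Taken singly, 9 of the 10 were above background on replicate 1, where 46.3% of all genes were, and 8 on replicate 2, where 44.2% were. All 6 surface genes were above background (Tlr1, Tlr2, Tlr4, Tlr5, Tlr6 and Cd14), with Tlr5 only just so, and 2 of 4 endosomal genes were (Tlr7 and Tlr13). Signals of different probe sets were not set against each other, because the brightness of a probe set also depends on its own probes.

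**Figure D1:**
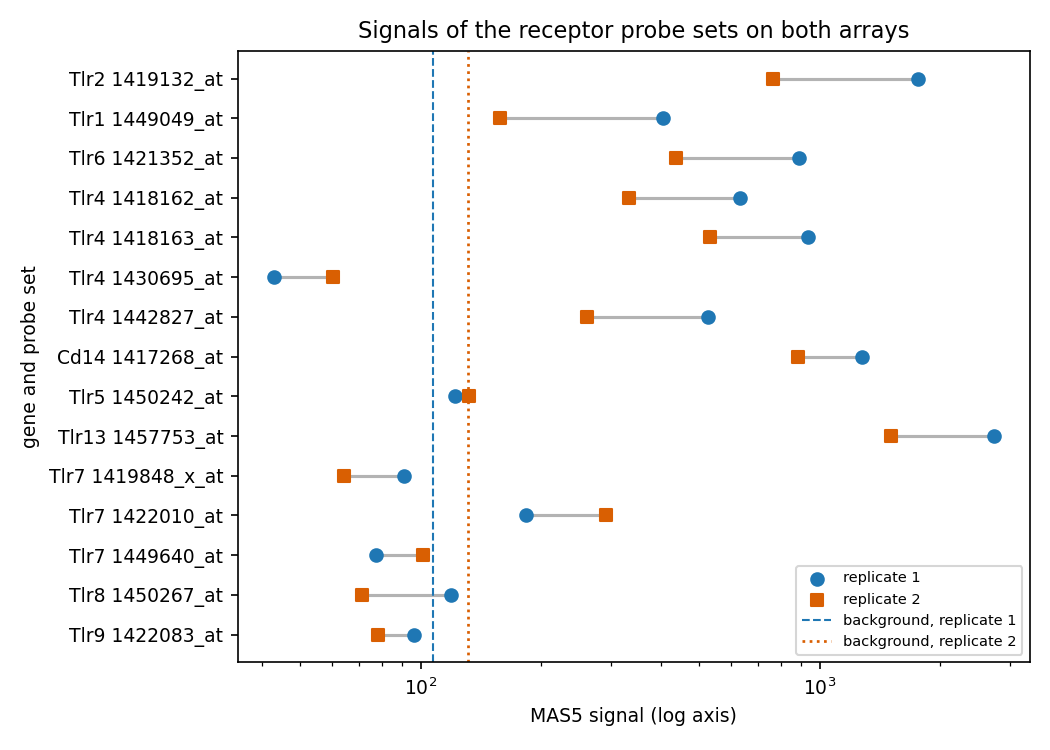
MAS5 signal (log axis) of each of the 15 receptor probe sets on replicate 1 (circles) and replicate 2 (squares), with the background of each array as vertical lines. The probe sets of Tlr2, Tlr1, Tlr6, Cd14 and Tlr13 and 3 of the 4 of Tlr4 lie to the right of both lines with replicate 1 above replicate 2, while Tlr5, Tlr8 and Tlr9 lie at or left of the lines on at least 1 array.

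Tlr2, Tlr1 and Tlr6 encode the receptors of bacterial lipoproteins. Tlr2 pairs with Tlr1 to bind triacylated lipopeptides and with Tlr6 to bind diacylated ones. Tlr2 (probe set 1419132_at) had signals of 1769 on replicate 1 and 763 on replicate 2, a log2 signal of 10.18 ± 0.86 (SD, n = 2). Tlr1 (1449049_at) had 404 and 158, a log2 signal of 7.98 ± 0.96 (SD, n = 2). Tlr6 (1421352_at) had 888 and 435, a log2 signal of 9.28 ± 0.73 (SD, n = 2). All 3 genes of this receptor system were higher on replicate 1, and Tlr1 on replicate 2 lay only 1.20 times over the background of its array. The difference, log2 signal of replicate 2 minus replicate 1, was -1.36 for Tlr1, -1.21 for Tlr2 and -1.03 for Tlr6, or 2.56-fold, 2.32-fold and 2.04-fold higher signals on replicate 1. Read on the brightest probe set above background with the deposited scaling, these were the receptor genes over 2-fold lower on replicate 2, 3 of the 8 above background, where 1.94% of all genes above background were. The count was 4 on the dimmest probe set above background, which adds Tlr4, and 2 with 32 added to each signal, which takes out Tlr6 (-0.98). No receptor gene was over 2-fold higher on replicate 2, where 3.39% of those genes were. Of the 7353 genes above background, 50 had a difference as low as that of Tlr1 or lower, 77 as low as that of Tlr2 and 132 as low as that of Tlr6. In bulk arrays such as these, fewer cells of a type and less RNA per cell cannot be told apart.

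Tlr4 encodes the receptor of lipopolysaccharide, the lipid of the outer membrane of Gram-negative bacteria, and Cd14 encodes the surface protein that hands lipopolysaccharide to it. Cd14 (1417268_at) had signals of 1280 and 882 on replicates 1 and 2, a log2 signal of 10.05 ± 0.38 (SD, n = 2) and a difference of -0.54. Of the 4 probe sets of Tlr4, 3 were above background on both arrays. The brightest of them (1418163_at) had 938 and 532, a log2 signal of 9.46 ± 0.58 (SD, n = 2) and a difference of -0.82. The probe set 1418162_at had 631 and 334, with a difference of -0.92, and 1442827_at had 526 and 262, with a difference of -1.01. The 3 probe sets thus gave differences within -1.01 to -0.82, and all had the higher signal on replicate 1. The fourth Tlr4 probe set (1430695_at) had 42.9 and 60.3, below background on both arrays, and so gave no level. Cd14 had the smallest difference of the 6 receptor genes that were lower on replicate 2.

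Tlr5 encodes the receptor of flagellin, the protein of bacterial flagella. Its probe set (1450242_at) had signals of 122 and 132, which are 1.13 and 1.01 times the background of their arrays, and a difference of 0.12. The call of Tlr5 rests on that margin: with the pseudogene Vmn2r-ps54 left out of the background list, Tlr5 was not above background on replicate 2 and 7 receptor genes were above it on both arrays.

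The endosomal receptors did not share a direction. Tlr13, the mouse receptor of bacterial ribosomal RNA, had signals of 2732 and 1513 (1457753_at), a log2 signal of 10.99 ± 0.60 (SD, n = 2) and a difference of -0.85. These signals were 25.4 and 11.5 times the background of their arrays. Tlr7, a receptor of single-stranded RNA, had signals of 184 and 292 (1422010_at), a log2 signal of 7.85 ± 0.47 (SD, n = 2) and a difference of 0.67, higher on replicate 2. The other probe sets of Tlr7 were below background on both arrays, with 77.4 and 101 for 1449640_at and 91.1 and 64.1 for 1419848_x_at, so the direction of Tlr7 rests on 1 probe set. Taken on each array apart, the median of its 3 probe sets was 91.1 and 101, a difference of 0.15. These are signals of different probe sets, both below background. Tlr8, a further receptor of RNA in endosomes, had 119 and 71.4 (1450267_at). Tlr9, the receptor of unmethylated CpG DNA, had 96.1 and 78.3 (1422083_at). No fold is given for Tlr8 or Tlr9, since neither was above background on replicate 2. Among the family members outside these 10, Tlr3, the receptor of double-stranded RNA, had signals of 9.78 and 20.1 on its brighter probe set, and Tlr12, which binds profilin of protozoa, had 107 and 41.8. Neither gene was above background on either array, and Tlr11 was not analysed here.

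Together 6 of the 8 receptor genes above background were lower on replicate 2, where 43.6% of all genes above background were, and 2 were higher, where 56.4% were. Their median difference was -0.83 against 0.07 for all genes above background, which had an interquartile range of -0.22 to 0.36. The surface genes had a median of -0.92 and ranged from -1.36 to 0.12. Each experiment gave 1 array, so no p-value can be attached to these differences and no replicate checks them.

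**Figure D2:**
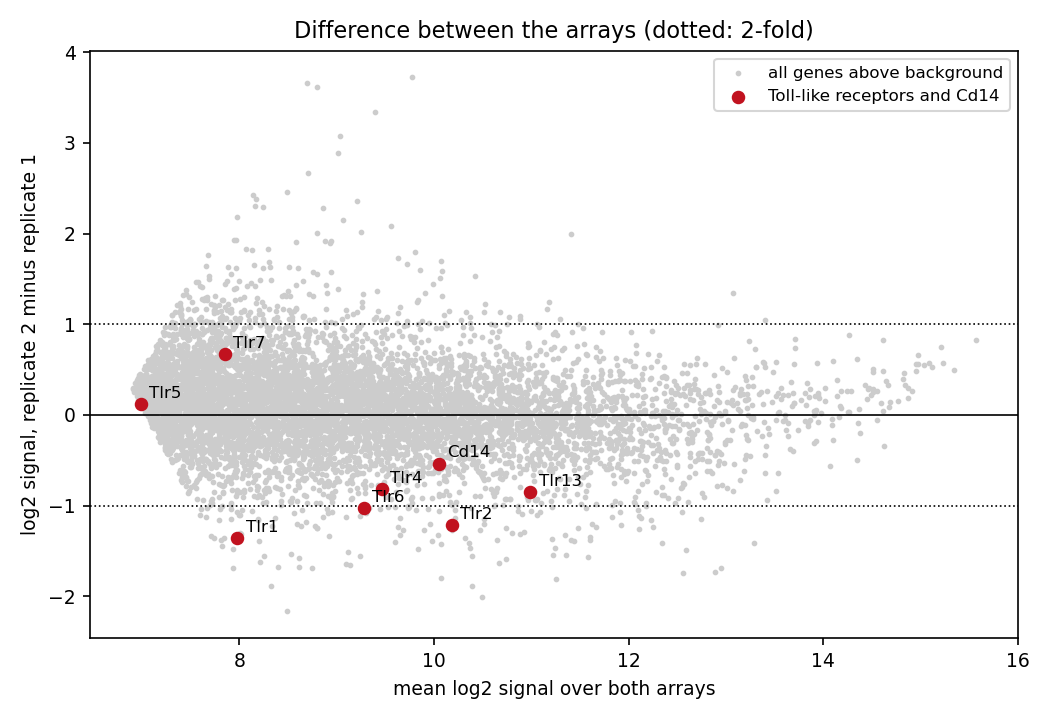
Difference between the arrays (log2 signal, replicate 2 minus replicate 1) against the mean log2 signal over both arrays for the 7353 genes above background (grey) and the 8 receptor genes among them (red); dotted lines mark 2-fold. Tlr1, Tlr2 and Tlr6 lie below the lower dotted line, Tlr4, Tlr13 and Cd14 between it and 0, and Tlr5 and Tlr7 above 0.

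Among these 8, only Tlr5 and Tlr7 changed direction with the scaling. Equal medians and the hybridisation controls both lower the signals of replicate 2, so the 6 genes already lower there could not change direction. Equal medians on the arrays gave -0.01 for Tlr5, so that 7 of 8 receptor genes were lower, where 55.4% of all genes above background then were. The 18 hybridisation control probe sets, which read transcripts added to the hybridisation mix, were all higher on replicate 2 by a mean log2 difference of 0.72 ± 0.06 (SD over probe sets). Scaling to them moved the median of all genes to -0.65 and that of the receptors to -1.56, with all 8 lower, where 91.8% of all genes above background then were, and 6 over 2-fold lower, where 21.1% were. Under that scaling Tlr5 and Tlr7 lay above the median of all genes, at -0.61 and -0.05, and the other 6 below it. These positions could not change, since the scaling multiplies all signals of replicate 2 by the same constant.

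**Figure D3:**
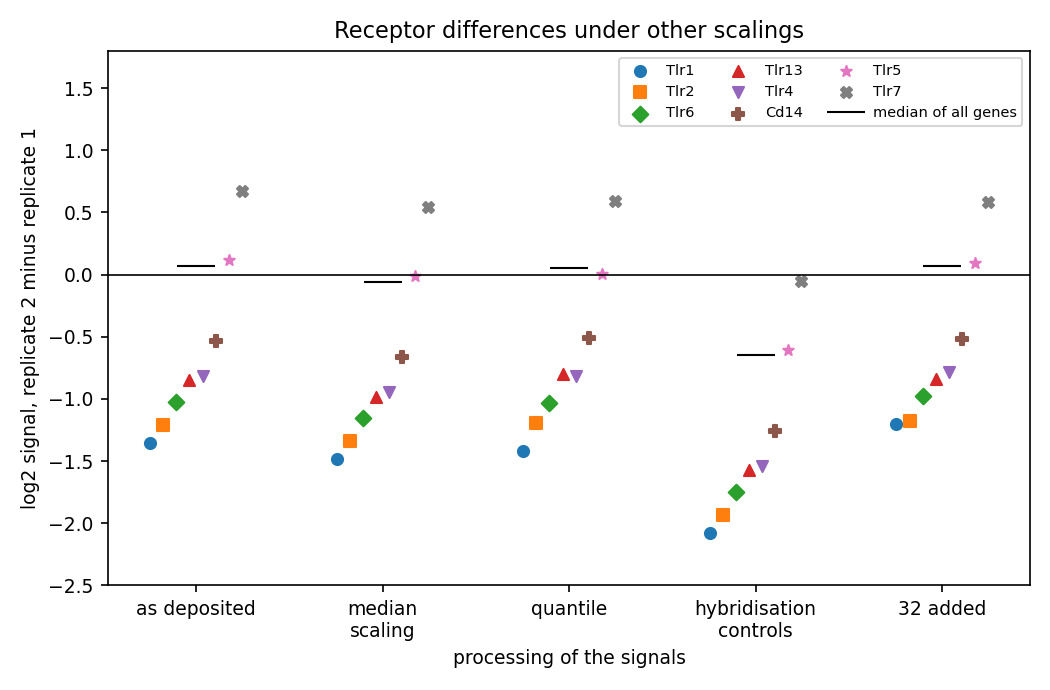
Difference of each of the 8 receptor genes (log2 signal, replicate 2 minus replicate 1) with the deposited scaling, with equal medians, with quantile normalization, with scaling to the hybridisation controls and with 32 added to each signal; bars mark the median of all genes above background. Tlr1, Tlr2, Tlr4, Tlr6, Tlr13 and Cd14 lie below 0 and below the bar in all 5 columns, while Tlr5 moves from 0.12 to -0.61 and Tlr7 from 0.67 to -0.05. Equal medians and the hybridisation controls shift all genes and the bar alike, so positions against the bar could not change there.

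Tlr1 and Tlr6 are neighbouring coding genes on chromosome 5, and Tlr7 and Tlr8 on chromosome X (RefSeq, assembly GRCm38.p6). The first pair had differences of -1.36 and -1.03. Of the second pair, Tlr7 was higher on replicate 2 and Tlr8 was above background on replicate 1 alone. RefSeq promoters were at hand for 7 of the 10 genes, with 9 start sites, and the 250 bases before each start were searched on both strands. The motifs were chosen with these results known, and kB motifs, the TATA box and longer ETS motifs were also looked at and are not reported here. GAGGAA is the core bound by PU.1, the ETS factor of myeloid cells, and GGAAGT is a core of ETS sites more widely. The motifs can overlap, as they do in Tlr1. GAGGAA occurred in 4 of the 9 windows (Tlr1, Tlr8, Tlr9 and Tlr13) and in 23.3% of 32851 promoter windows of the same length. GGAAGT occurred in 3 of the 9 (Tlr1, Tlr2 and Tlr6) and in 19.7% of all windows. At least 1 of these motifs stood in 6 of the 9 windows and in 36.7% of all windows. The AP-1 motif TGACTCA occurred in 1 of the 9, that of Tlr9, and in 4.46% of all. Such matches describe the letters of these windows and do not show that a factor binds. Windows of 3 genes that were lower on replicate 2 and of Tlr9, which was not above background, are printed 5′ to 3′ to compare them, with matches of GAGGAA or GGAAGT on either strand in capitals. They lie at chr5:64933559-64933808 (minus strand, Tlr1), chr5:64959167-64959416 (minus strand, Tlr6), chrX:106143025-106143274 (plus strand, Tlr13) and chr9:106222348-106222597 (plus strand, Tlr9).
Tlr1: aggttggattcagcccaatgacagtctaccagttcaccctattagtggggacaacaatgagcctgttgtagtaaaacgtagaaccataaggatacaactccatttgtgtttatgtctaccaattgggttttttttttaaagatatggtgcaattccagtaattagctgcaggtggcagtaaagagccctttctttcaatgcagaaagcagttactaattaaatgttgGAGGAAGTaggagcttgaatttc
Tlr6: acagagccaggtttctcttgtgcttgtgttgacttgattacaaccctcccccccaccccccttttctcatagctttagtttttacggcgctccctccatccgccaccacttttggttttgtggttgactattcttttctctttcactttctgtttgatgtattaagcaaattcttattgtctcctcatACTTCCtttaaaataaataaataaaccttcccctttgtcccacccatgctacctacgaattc
Tlr13: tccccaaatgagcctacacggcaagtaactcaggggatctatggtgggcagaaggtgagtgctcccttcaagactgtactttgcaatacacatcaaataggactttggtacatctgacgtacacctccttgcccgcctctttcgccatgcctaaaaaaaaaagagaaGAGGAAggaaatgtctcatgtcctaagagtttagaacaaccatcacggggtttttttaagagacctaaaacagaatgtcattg
Tlr9: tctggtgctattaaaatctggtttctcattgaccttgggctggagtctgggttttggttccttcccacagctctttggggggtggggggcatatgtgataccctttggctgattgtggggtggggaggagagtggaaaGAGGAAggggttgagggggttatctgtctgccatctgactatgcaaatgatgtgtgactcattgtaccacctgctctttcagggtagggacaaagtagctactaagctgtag
Only windows with a match were printed, so a match in each of them says nothing about the signals. The window of Tlr5 and the other windows of Tlr1 and Tlr6 carried neither GAGGAA nor GGAAGT. Tlr13, above background, and Tlr9, not above it, both carried GAGGAA, and the match of Tlr6 read on the opposite strand.

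The genes around the receptors were read from lists ordered by role, from co-receptors to transcription factors. Of 62 listed genes 55 were measured, and 41 of these were above background on both arrays, where 40.4% of all genes were. Of the 41, 24 were lower on replicate 2, where 43.6% of all genes above background were, and 17 higher, where 56.4% were. Their median difference was -0.08 against 0.07 for all genes above background. Of the same 41, 2 genes were over 2-fold lower on replicate 2, where 1.94% of all genes above background were. Another 1 was over 2-fold higher, where 3.39% were. Ticam2, Irak4, Traf3, Il1rl1, Chuk and Nfkb1 were not analysed here.

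Among co-receptors and ligand carriers 3 of 5 genes were above background, with 1 lower and 2 higher. Ly96, whose product binds lipopolysaccharide in complex with Tlr4, had signals of 551 and 261 and a difference of -1.08. It was lower on replicate 2, as Tlr4 and Cd14 were. Lbp, the plasma protein that carries lipopolysaccharide to Cd14, was higher, with 1445 and 2146 and differences of 0.57 and 1.36 on its 2 probe sets (it was named after its values were seen). Cd180, a relative of Tlr4 without a TIR domain, had 157 and 161, and its partner Ly86 was below background on both arrays with 15.9 and 32.2.

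Receptor folding and transport genes were above background in 7 of 8, with 4 lower and 3 higher. Unc93b1, which carries the nucleic acid receptors to endosomes, had signals of 520 and 398 and a difference of -0.39. The chaperone genes for Toll-like receptors went the other way: Hsp90b1 had 1738 and 3612, with a difference of 1.06, and Cnpy3 had 256 and 294, with a difference of 0.20. Slc15a3, an endosomal transporter of histidine and peptides, had 2153 and 805, with a difference of -1.42, the largest in the lists around the receptors among genes above background on both arrays. Cnpy4 was above background on replicate 2 alone, with 105 and 218, at least 2.03-fold higher there when its replicate 1 signal is taken at the background. Of the endosomal proteases, which cut nucleic acid receptors into their active form, 4 of 6 genes were above background and 3 of the 4 lower. Ctsl had 1051 and 640, Ctsb had 1018 and 870, and Lgmn was below background on both arrays with 36.7 and 71.4.

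The adaptor genes above background were 3 of 5 measured, with 2 lower and 1 higher. Myd88, the adaptor used by nearly all Toll-like receptors, had signals of 2874 and 1908 and a difference of -0.59. Tirap, which brings Myd88 to surface receptors, had 2694 and 1978 and a difference of -0.45, with the same sign on both of its probe sets. Ticam1, the adaptor of Tlr3 and of endosomal Tlr4, was above background on replicate 2 alone, with 92.2 and 182. Myd88 and Tirap were thus lower on replicate 2, by less than 2-fold, while Pik3ap1, a phosphoinositide kinase adaptor named after its values were seen, was higher with 371 and 431, a difference of 0.21.

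Downstream of the adaptors no gene above background on both arrays differed over 2-fold. In the module of IRAK kinases, Traf6 and Tak1, 10 of 11 genes were above background, 7 lower and 3 higher, with a range of -0.35 to 0.51 and a median of -0.09. The kinase gene Irak1 had signals of 698 and 915, Irak2 had 627 and 625, and the ubiquitin ligase gene Traf6 had 207 and 178. Of the 2 Traf6 probe sets above background, 1 was lower and 1 higher on replicate 2. Tab1 was not above background on either array, with 102 and 26.0. Among negative regulators 6 of 8 were above background, with Irak3, an IRAK protein that restrains the pathway, at 852 and 1002, Tollip at 1437 and 1361, and the ubiquitin-editing enzyme gene Tnfaip3 at 435 and 391. Of the NF-kB and IRF genes 8 of 10 were above background, with a median of 0.19, 3 lower and 5 higher. Ikbkb had 792 and 871, Ikbkg 550 and 688, and Nfkbia, the inhibitor that holds NF-kB in the cytoplasm, 10933 and 12925. The probe sets above background disagreed in sign for these 3 genes, with ranges of -0.75 to 0.62, -0.83 to 0.32 and -0.40 to 0.25. Ikbke was above background on replicate 2 alone, with 39.0 and 222, at least 2.07-fold higher there, and Rel on replicate 1 alone, with 110 and 103. With scaling to the hybridisation controls 40 of the 41 pathway genes were lower on replicate 2, where 91.8% of all genes above background were.

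**Figure D4:**
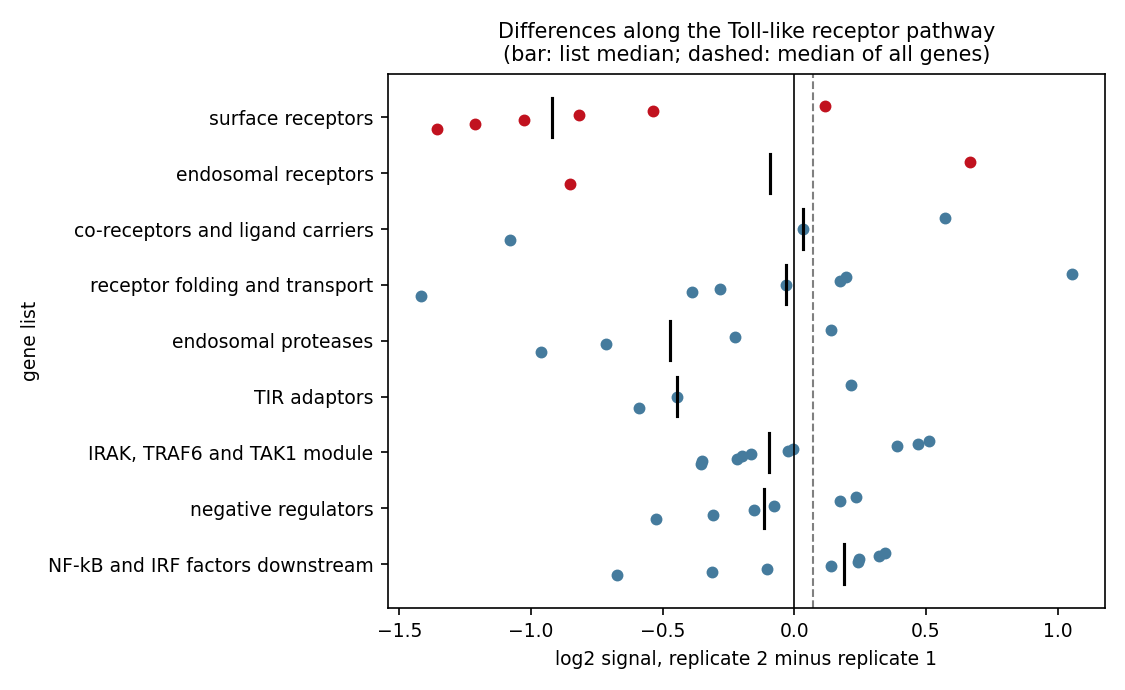
Difference between the arrays (log2 signal, replicate 2 minus replicate 1) of each receptor gene (red) and pathway gene (blue) above background on both arrays, by role; black bars mark the median of each list and the dashed line that of all genes, 0.07. The surface receptors have a median of -0.92, the IRAK, Traf6 and Tak1 module one of -0.09 and the NF-kB and IRF factors one of 0.19.

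The label of the cells was checked on neutrophil genes, of which 10 of 10 measured were above background, among them S100a8, S100a9, Ltf, Camp and Ngp. Some other lists also differed between the arrays, with or against the direction of the receptors. Of the neutrophil genes, the chemokine receptor gene Cxcr2 (7212 and 3224) and the G-CSF receptor gene Csf3r (7951 and 4670) were lower on replicate 2, while the other 8 were higher. Proliferation genes were above background in 8 of 14, all 8 higher on replicate 2, with a median of 2.64 and a summed signal of 2272 on replicate 1 and 11315 on replicate 2. Another 5 proliferation genes were above background on replicate 2 alone. Monocyte markers, of a cell type that also carries Tlr2, Tlr4 and Cd14, were above background in 4 of 7, 2 of them lower on replicate 2 and 2 higher, with a median difference of 0.10. Csf1r (5020 and 1928) and F13a1 (264 and 231) were lower, and Ccr2 (157 and 220) and Fcgr1 (120 and 158) higher. All 3 probe sets of Csf1r were lower, with differences from -1.38, on the brightest, to -0.59. The summed signal of the list was 5870 on replicate 1 and 2792 on replicate 2, and the signal of Csf1r alone differed by more than this sum did. Cx3cr1 of that list (165 and 104) was above background on replicate 1 alone, and Ms4a6c and Klf4 were below background on both arrays. Macrophage markers were above background in 3 of 10, all 3 lower on replicate 2, with differences of -1.53 for Adgre1, -0.65 for C1qb and -0.03 for Vcam1, with a summed signal of the list of 1649 and 933. Cd5l (204 and 107) and Siglec1 (142 and 52.5) were above background on replicate 1 alone. C1qa, C1qc, Mertk, Marco and Axl were below background on both arrays. B cell markers were above background in 1 of 9, Igll1 with a difference of -0.04. Ms4a1 (72.6 and 158) and Pax5 (88.8 and 174) were above it on replicate 2 alone, and Vpreb3 (173 and 19.8) on replicate 1 alone. Dendritic cell markers were above background in 2 of 9, Cd74 with -0.30 and Zbtb46 with 0.07. Xcr1 (111 and 17.4) and Itgax (174 and 130) were above it on replicate 1 alone. The summed signals of these lists, 631 and 846 for B cells and 916 and 602 for dendritic cells, hold mostly genes not above background on both arrays, so no difference is read from them. Ratios of the 3′ to the 5′ control probe set, a sign of RNA integrity, were 0.762 and 0.783 for Gapdh and 1.10 and 1.25 for beta-actin on replicates 1 and 2. The part of these lists and ratios in the receptor differences was not tested.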

How the data were processed

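The deposited table gives, for 2 arrays, a linear intensity of 45101 probe sets. The authors computed these intensities with MAS5, as the submitters' processing notes state. The program's version and settings are not stated in the sources used here, and detection calls were not used. On the values, the mean without the lowest and highest 2% was 250.0 on both arrays, so overall brightness had been made equal before deposit. Gene names came from the platform annotation held by GEO, which gives 1 gene for 34958 probe sets, several for 932 and none for 9211, and 64 control probe sets were left out of the genes. No probe set with several genes held a member. Signals were floored at 1 before log2, and a gene was read on its brightest probe set above background.

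With 1 array per experiment no test across arrays was possible; differences are descriptions without p-values, and the number of arrays limits the precision. The members and lists were chosen with earlier results of these data known. Named pathway genes are the first 3 measured of each list, up to 4 that go against over 75% of their list, and those over 2-fold different. The alternatives were other background cutoffs and lists, other scalings, no filter, 32 added to the signal, and other choices of probe set. The procedure was tested on simulated data, with changes larger than those of the receptors and no background cutoff. That run is no check of the background calls or of smaller differences. Python 3.11.15, NumPy 2.4.6 and pandas 2.3.3 were used.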

Additional observations from a re-analysis of the deposited data

How the results depend on the processing

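The count of 8 receptor genes above background lay between 5 and 10 over 12 alternatives. It was 5 with the background read from genes of other organs, which left out Tlr1, Tlr5 and Tlr7. With the background at the 99th percentile it was 6, which left out Tlr1 and Tlr5. The 10 came with no filter and is every receptor gene measured. The count could not change with equal medians, scaling to the hybridisation controls or a constant added to the signal. Nor could it change with the median over probe sets or the dimmest probe set. The 8 under these settings is therefore no check of the count. The receptor count was 8 on replicate 2 alone and 9 on replicate 1 alone. The median receptor difference stayed below 0 throughout and was -1.56 after scaling to the hybridisation controls, which lowers all signals of replicate 2. The pathway count of 41 lay between 34 and 55 over the settings run, with 43 genes on replicate 1 alone and 45 on replicate 2 alone. The 55 came with no filter and is every pathway gene measured. The settings that could not change the receptor count could not change the pathway count either. Of 90 values for single receptors under these alternatives, 82 moved by less than the SD of that receptor between the arrays and 8 moved by more. Many of the 82 could not move, so their count is not a check of the differences. Background cutoffs, no filter and other choices of probe set leave the value of a gene with 1 probe set unchanged. Tlr1, Tlr2, Tlr4, Tlr6, Tlr13 and Cd14 kept their sign in each setting where they were above background. Tlr5 changed sign with median scaling (-0.01) and with the hybridisation controls (-0.61), and Tlr7 with the hybridisation controls (-0.05). The background list without its pseudogene was an alternative added after the data were seen. No paired analysis was possible because the labels give 1 group. Signal over background limits Tlr5, Tlr8 and Tlr9, which lay near or below it. It also limits Tlr1, which lay at 1.20 times the background on replicate 2.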
